A study of Mus musculus with 36 samples.

Results

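The suppressor of cytokine signalling (SOCS) family of the mouse was followed through a lipopolysaccharide (LPS) response in macrophages. Its members were taken by symbol as Socs1 to Socs7 and Cish, and were chosen with earlier results of these data known. All 8 were found among the 16416 genes of the deposited table that had an intact name, and all 8 were among the 11656 genes that passed a filter on low values (a linear value of at least 10 in at least 3 libraries). The cells were mouse bone marrow-derived macrophages carrying Tnip2[D310N], at 0, 30, 60, 120, 240 and 360 min of 100 ng/ml LPS, and WT macrophages at the same times, with 3 libraries in each of the 12 groups and 36 libraries in all. D310N replaces an aspartate with an asparagine in Tnip2, a ubiquitin-binding adaptor of Toll-like receptor and NF-kB signalling. It is a codon change, and no level of Tnip2 RNA is given here as a check on the genotype labels. Marrow cells of both genotypes had been grown on non-adherent plates for 7 days, with 10% fetal calf serum and 10% supernatant of L929 cells, a source of macrophage colony-stimulating factor, in the medium. The strain, sex, age and number of mice are not given in the sources used here, and nothing says that the 3 libraries of a group came from separate animals or cultures. P-values therefore measure the spread between these libraries, which may be technical. Values are log2 normalised values of each gene, not scaled to gene length, so levels were compared within a gene and not between genes.

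SOCS proteins are brakes on cytokine receptors. A cytokine that binds its receptor activates Janus kinases, which phosphorylate STAT transcription factors, and STATs switch on SOCS genes, whose proteins then return to the receptor. Each protein binds phosphotyrosines through an SH2 domain and, through a SOCS box, recruits elongins and a cullin ubiquitin ligase. Socs1 and Socs3 also carry a kinase inhibitory region. In macrophages, LPS acts through Tlr4, and the interferon and interleukins that the cells release act back on them, so SOCS genes are known as late checks on inflammation in these cells.

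Promoter stretches are shown for the 3 members with the largest rises after LPS, because each holds a sequence that STAT or interferon-regulatory factors are known to bind. They come from RefSeq promoters on GRCm38.p6, where windows of 4 of the 8 members were searched (Socs1, Socs3, Socs4 and Cish). Socs2, Socs5, Socs6 and Socs7 were not part of this search, so whether their promoters hold these motifs was not tested. Each window ran from 250 bases before to 50 bases after the gene's start. Both strands were searched for the STAT motif TTCNNNGAA, the interferon response motif GAAANNGAAA and an NF-kB motif. Capitals mark the matches, and positions count from the start, with -1 the base before it. Over all 32851 promoter windows, 8.3% held the STAT motif, 3.44% the interferon response motif and 4.51% the NF-kB motif.
Socs1: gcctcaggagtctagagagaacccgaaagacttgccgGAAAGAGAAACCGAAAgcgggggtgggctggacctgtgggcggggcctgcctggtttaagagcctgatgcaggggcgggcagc
Socs3: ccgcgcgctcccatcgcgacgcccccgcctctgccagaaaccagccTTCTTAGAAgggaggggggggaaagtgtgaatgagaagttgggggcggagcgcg
Cish: cagttTTCCTGGAAagTTCTTGGAA
The Socs1 stretch is chr16:10785537-10785656 on the minus strand, the 120 bases before the start. It held 2 interferon response motifs that share 4 bases, at -83 to -74 and at -77 to -68. The Socs3 stretch is chr11:117969467-117969566 on the minus strand, from -200 to -101, with 1 STAT motif at -154 to -146. It lies within the span of an annotated Socs3 transcript that starts further upstream, outside that transcript's exons. The Cish stretch is chr9:107296654-107296678 on the plus strand, from 5 bases before the start to base 20, with STAT motifs at 1 to 9 and at 12 to 20. It falls in the 5′ untranslated part of an exon of an annotated Cish transcript that starts further upstream, and within the transcript of Gm17040 on the opposite strand. None of the motifs was found in the Socs4 window, and the NF-kB motif was found in none of the 4 windows. A match describes the letters and shows no binding.

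The cells carried the markers of macrophages. All 10 macrophage markers passed the filter, and their summed linear level ranged from 229396 to 295791 in D310N libraries and from 240324 to 296837 in WT libraries. Summed levels of the T cell, natural killer, dendritic, stromal, neutrophil and B cell lists ran between 12.4 and 507 in D310N libraries and between 12.8 and 597 in WT libraries. The tested members were 3 of 7, 1 of 4, 3 of 5, 2 of 6, 2 of 9 and 1 of 5. From the neutrophil, T cell and natural killer lists, Ly6g, Cd3d and Ncr1 were at most -2.83 on the log2 scale in every library. Other listed genes were detected, among them Cd4 at 5.97 to 7.16, Lck at 3.98 to 8.89, Klrk1 at 3.03 to 8.28 and Cd79b at 4.17 to 5.12 over all libraries, and their part in the results was not tested. Rn45s, a ribosomal RNA gene, read 18.9 in D310N 30 min replicate 3, 17.5 in D310N 240 min replicate 1, 19.3 in WT 30 min replicate 3 and 14.6 to 16.1 in the other libraries, and its part in the results was not tested. Sequencing depth is not known from normalised values. In bulk RNA, fewer cells of a type and less RNA per cell cannot be told apart.

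The library labelled WT 360 min replicate 1 stood apart from its group. Over the 1399 genes that separate the other 360 min WT libraries from those at 240 min by more than 0.5 in their means, 89.6% were nearer to WT at 240 min in this library. For each of the other 35 libraries the share was taken over its own set of genes, chosen in the same way. The highest was 17.0%, over 359 genes, in WT 360 min replicate 2. WT 360 min replicate 1 was also nearer WT at 240 min for Cish, at 8.59 against 7.25 and 7.47 in the other WT libraries at 360 min and 8.54 to 8.62 at 240 min. The same held for Socs1, Socs3 and Socs7, so results at 360 min are given with and without this library. All comparisons share 1 estimate of the spread, so this library also entered the SE at the other times. For Socs1 between genotypes at 120 min the SE was 0.14 with it and 0.09 without it. Calls at other times that changed without it are therefore given as well.

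**Figure D1:**
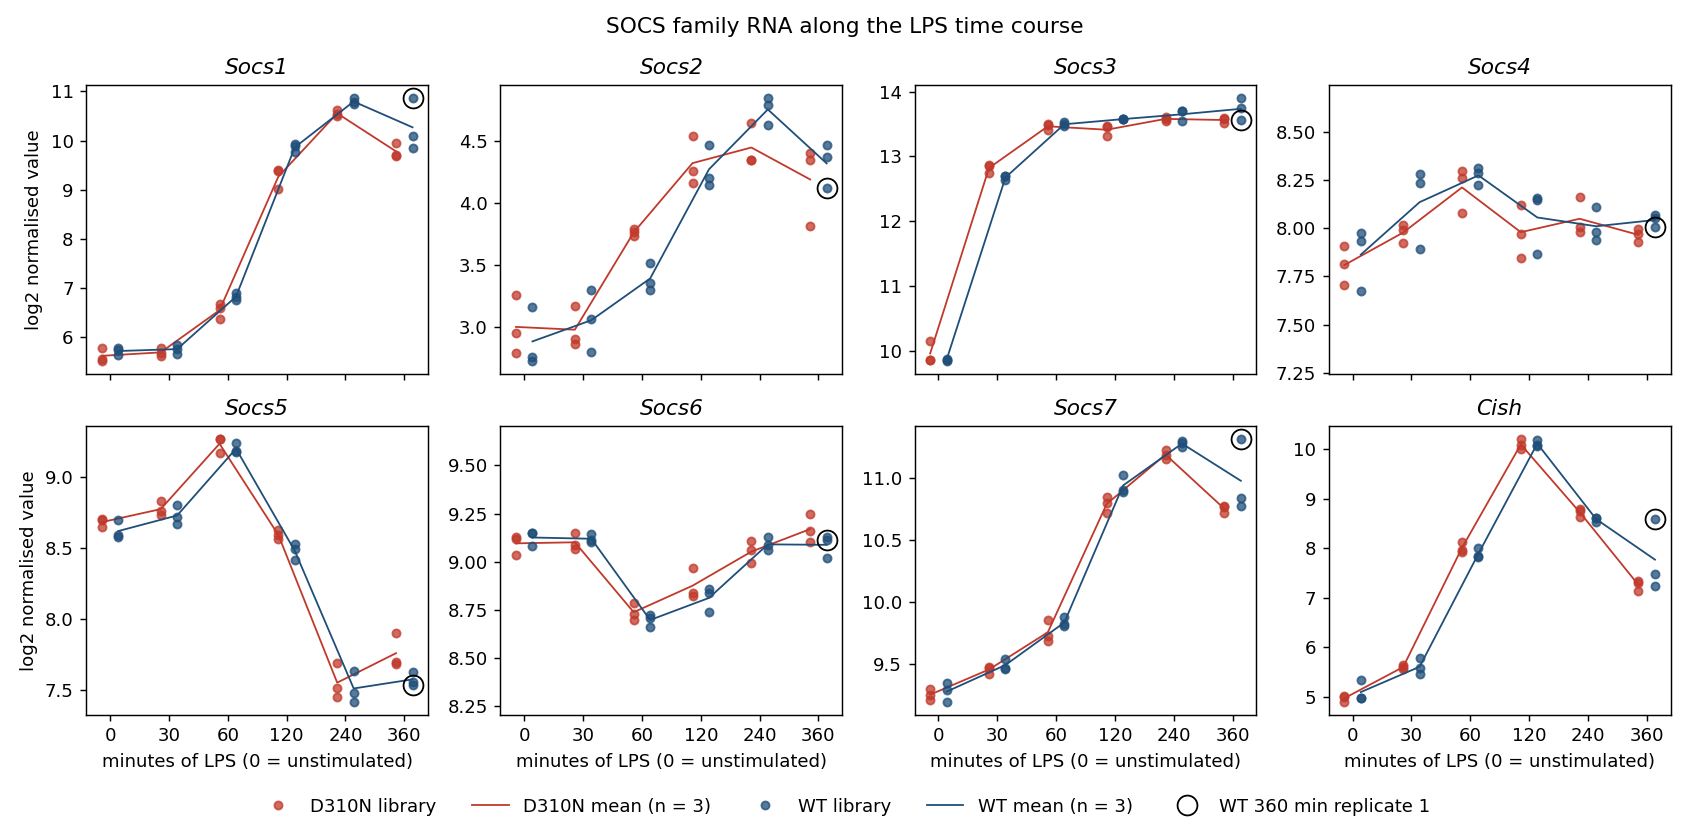
Log2 normalised value of each SOCS family gene (vertical axis, its own range in each panel) against minutes of LPS (horizontal axis), with 1 point per library and a line through the 3-library means of D310N (red) and WT (blue). Socs1, Socs2, Socs3, Socs7 and Cish climb by over 1.4 log2 units, Socs5 climbs and then drops, and the circled WT 360 min replicate 1 sits at the 240 min level for Cish, Socs1 and Socs7.

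Socs3, which binds the shared receptor chain of the Il6 family (Il6st) and blocks its Janus kinases, was the member with the largest change at 30 min. The gene lies at chr11:117966079-117970047 on the minus strand (GRCm38, GENCODE M21). At 0 min it read 9.87, 9.86 and 10.16 in the D310N libraries, against 9.87, 9.85 and 9.88 in WT. At 30 min the values were 12.74, 12.86 and 12.87 in D310N, against 12.70, 12.70 and 12.63 in WT. By 60 min they had reached 13.49, 13.50 and 13.41 in D310N, against 13.53, 13.50 and 13.46 in WT. Every 30 min library lay far above every 0 min library, and most of the climb was over by then. Relative to 0 min, Socs3 rose by 2.86 ± 0.07 (SE) on the log2 scale in D310N and by 2.81 ± 0.07 in WT at 30 min, which is 7.26-fold and 7.00-fold (limma, Benjamini-Hochberg adjusted p = 1.2e-25 and 1.8e-25). From 30 to 60 min it rose by a further 0.64 in D310N and 0.82 in WT.

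From 60 min onwards Socs3 stayed on a plateau. At 120 min it read 13.46, 13.46 and 13.31 in D310N, against 13.58, 13.57 and 13.57 in WT. At 240 min the values were 13.55, 13.58 and 13.61 in D310N, against 13.70, 13.71 and 13.54 in WT. At 360 min they were 13.57, 13.52 and 13.59 in D310N, against 13.56, 13.90 and 13.74 in WT. The genotypes did not overlap at 30 min, where D310N was higher, or at 120 min, where it was lower, and they overlapped at the other 4 times. None of these differences passed the test, the nearest being -0.17 ± 0.07 at 360 min (adjusted p = 0.067) and -0.16 ± 0.07 at 120 min (adjusted p = 0.082). Without WT 360 min replicate 1, which was the lowest WT library at that time, both passed, at -0.26 ± 0.06 and -0.16 ± 0.06. Leaving out D310N 0 min replicate 3 had the same effect on both calls, and leaving out WT 360 min replicate 2 on that at 120 min. Between plateau times the steps were at most 0.17 in size. That from 120 to 240 min in D310N, 0.17 ± 0.07, passed (adjusted p = 0.026, 0.010 to 0.15 over the alternatives), but not without D310N 120 min replicate 3, D310N 240 min replicate 2 or D310N 240 min replicate 3, and under quantile normalisation the 120 to 240 min step was negative in both genotypes. The step from 240 to 360 min in WT passed without WT 360 min replicate 1, at 0.17 ± 0.06, and not with it, at 0.08 ± 0.07.

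Socs1, which inhibits the Janus kinases of interferon receptors and is known as the main check on interferon signalling, rose later and further. It lies at chr16:10782240-10785536 on the minus strand. At 0 min it read 5.79, 5.53 and 5.56 in D310N, against 5.74, 5.65 and 5.78 in WT. At 30 min it was still at 5.62, 5.68 and 5.79 in D310N, against 5.76, 5.85 and 5.67 in WT. At 60 min the values were 6.60, 6.68 and 6.38 in D310N, against 6.91, 6.76 and 6.83 in WT. The genotypes overlapped at 0 and 30 min, with no visible response at 30 min, and the first rise at 60 min left every D310N library below every WT library. At 120 min Socs1 stood at 9.41, 9.39 and 9.01 in D310N, against 9.77, 9.93 and 9.90 in WT. At 240 min it stood at 10.50, 10.54 and 10.62 in D310N, against 10.79, 10.74 and 10.86 in WT. At 360 min it stood at 9.94, 9.69 and 9.71 in D310N, against 10.86, 10.10 and 9.85 in WT. The genotypes stayed apart at 120 and 240 min, the time of the highest values in both, and overlapped at 360 min.

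Against 0 min, Socs1 rose by 3.64 ± 0.14 in D310N and 4.14 ± 0.14 in WT at 120 min, and by 4.93 ± 0.14 in D310N and 5.07 ± 0.14 in WT at 240 min, a 30.4-fold and a 33.6-fold rise. Between 60 and 120 min alone it gained 2.71 ± 0.14 in D310N and 3.03 ± 0.14 in WT. From 240 to 360 min it fell by 0.77 ± 0.14 in D310N and fell by 0.52 ± 0.14 in WT, or fell by 0.82 ± 0.10 in WT without WT 360 min replicate 1. The call in WT was lost without WT 360 min replicate 2 or without WT 360 min replicate 3.

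Socs1 was lower in D310N than in WT at 120 min and on average over the times. At 120 min it averaged 9.27 ± 0.22 in D310N and 9.86 ± 0.09 in WT (SD, n = 3 each), a difference of -0.59 ± 0.14 (limma, adjusted p = 0.0034) that put D310N at 0.662 of the WT level. This call held under every alternative run, single libraries left out included, with adjusted p between 1.2e-05 and 0.042. Averaged over the 6 times the difference was -0.29 ± 0.06 (adjusted p = 0.00011), a call that also held with any single library left out. At 360 min it was -0.49 ± 0.14 (adjusted p = 0.018). Without WT 360 min replicate 1 that value was -0.19 ± 0.10 and did not pass, and the call was also lost without D310N 360 min replicate 2 or 3. At 60 and 240 min the differences of -0.28 ± 0.14 and -0.24 ± 0.14 did not pass, although the libraries did not overlap. Without WT 360 min replicate 1 the value at 60 min passed, at -0.28 ± 0.09. At 0 and 30 min the differences were -0.10 ± 0.14 and -0.07 ± 0.14, with 95% intervals of -0.39 to 0.19 and -0.36 to 0.23.

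Cish, a target of Stat5 that damps growth hormone, Il2 and Csf2-type receptor signalling, behaved as a pulse. It lies at chr9:107296026-107302784 on the plus strand. At 0 min it read 5.0, 4.91 and 5.01 in D310N, against 4.97, 4.98 and 5.34 in WT. At 30 min it read 5.64, 5.57 and 5.60 in D310N, against 5.78, 5.58 and 5.46 in WT. At 60 min it read 8.13, 7.92 and 7.97 in D310N, against 8.01, 7.82 and 7.84 in WT. The genotypes overlapped at each of these times, and all libraries at 60 min stood above all at 30 min. At 120 min it reached 10.20, 10.00 and 10.08 in D310N, against 10.19, 10.09 and 10.06 in WT. At 240 min it was back at 8.75, 8.64 and 8.80 in D310N, against 8.61, 8.54 and 8.62 in WT. At 360 min it was at 7.31, 7.13 and 7.34 in D310N, against 8.59, 7.25 and 7.47 in WT. All libraries at 120 min stood above those of every other time, D310N lay above WT without overlap at 240 min, and at 360 min 1 WT library stood more than 1 log2 unit above all other libraries.

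At its peak Cish was 34.9-fold above 0 min in D310N (5.12 ± 0.17 on the log2 scale) and 32.4-fold above it in WT (5.02 ± 0.17). From 120 to 240 min it fell by 1.37 ± 0.17 in D310N and fell by 1.52 ± 0.17 in WT. From 240 to 360 min it fell by 1.47 ± 0.17 in D310N and fell by 0.82 ± 0.17 in WT, and fell by 1.23 ± 0.10 in WT without WT 360 min replicate 1. The difference between genotypes at 360 min was -0.51 ± 0.17 (limma, adjusted p = 0.042) with all libraries and -0.10 ± 0.10 without that library, which did not pass. The call was also lost without any 1 of the 3 D310N libraries at 360 min. At the other 5 times no difference passed, and all were within 0.14 of zero. The first rise, at 30 min, was 0.63 ± 0.17 in D310N and passed (adjusted p = 0.020), but not without any 1 of the 6 libraries compared. In WT it was 0.51 ± 0.17 and did not pass (adjusted p = 0.083), although it did without WT 360 min replicate 1 or 2. Cish overlaps the annotated genes Gm17040 and Gm17041 on the opposite strand, over 1167 and 1459 bases. Neither has an entry of its own in the table, and whether reads were counted by strand is not given in the sources used here, so the value may include reads from them.

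Socs7, which binds insulin receptor substrates and other adaptors, rose gradually to 240 min in both genotypes. The gene lies at chr11:97362551-97398542 on the plus strand. It averaged 9.25 ± 0.05 in D310N and 9.28 ± 0.08 in WT at 0 min, and 9.76 ± 0.09 in D310N and 9.84 ± 0.04 in WT at 60 min. At 120 min it read 10.72, 10.85 and 10.80 in D310N, against 11.03, 10.89 and 10.91 in WT. At 240 min it read 11.19, 11.23 and 11.16 in D310N, against 11.29, 11.30 and 11.25 in WT. All D310N libraries were below all WT libraries at both times, by a small margin. At 360 min it read 10.72, 10.77 and 10.78 in D310N, against 11.32, 10.78 and 10.84 in WT, again without overlap, though the margin is lost in the rounding. Its highest value, at 240 min, was 1.94 ± 0.08 above 0 min in D310N and 2.00 ± 0.08 above it in WT, or 3.84-fold and 4.01-fold, and it then fell by 0.44 ± 0.08 in D310N and fell by 0.30 ± 0.08 in WT, the WT call being lost without WT 360 min replicate 2 or 3. The average difference between genotypes over the 6 times was -0.10 ± 0.03 (limma, adjusted p = 0.0084), or 0.933 of the WT level, and passed with any single library left out. At 360 min the difference of -0.23 ± 0.08 (adjusted p = 0.041) came to -0.06 ± 0.05 without WT 360 min replicate 1 and then did not pass. It also failed without any 1 of the D310N libraries at 360 min. At 120 min the difference of -0.15 passed without WT 360 min replicate 1 and not with it.

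Socs2, which restrains growth hormone signalling, was the lowest member against the filter. It lies at chr10:95385362-95417180 on the minus strand. It reached the filter's level of 3.32 in 23 of 36 libraries and in none of the 6 at 0 min, so it entered the test through its LPS libraries. It averaged 3.00 ± 0.24 in D310N and 2.88 ± 0.24 in WT at 0 min. At 60 min it read 3.76, 3.79 and 3.73 in D310N, against 3.30, 3.35 and 3.52 in WT, with D310N above WT throughout. Its 60 min difference of 0.37 ± 0.16 did not pass (adjusted p = 0.15). The highest means were at 240 min, 4.45 ± 0.17 in D310N and 4.75 ± 0.11 in WT. Relative to 0 min these were rises of 1.45 ± 0.16 in D310N and 1.87 ± 0.16 in WT. At 60 min it had risen by 0.76 ± 0.16 in D310N and by 0.51 ± 0.16 in WT, and the WT call was lost without WT 0 min replicate 2, WT 0 min replicate 3 or WT 60 min replicate 3.

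Socs5, which limits Il4 and epidermal growth factor receptor signalling, was the member that ended below its starting level in both genotypes. It lies at chr17:87107679-87137839 on the plus strand. At 0 min it read 8.70, 8.64 and 8.70 in D310N, against 8.59, 8.69 and 8.57 in WT. At 60 min it read 9.16, 9.26 and 9.26 in D310N, against 9.17, 9.18 and 9.24 in WT. At 240 min it read 7.69, 7.51 and 7.45 in D310N, against 7.63, 7.42 and 7.48 in WT. The high point at 60 min and the low point at 240 min were shared by the genotypes, which overlapped at all 3 of these times. Socs5 was 0.55 ± 0.06 above its 0 min level at 60 min in D310N and 0.58 ± 0.06 above it in WT. At 240 min the difference from 0 min was -1.13 ± 0.06 in D310N and -1.11 ± 0.06 in WT, that is 0.457 and 0.464 of the starting level. Between these, at 120 min, it stood at -0.09 ± 0.06 in D310N, which did not pass, and at -0.14 ± 0.06 in WT, which passed narrowly (adjusted p = 0.0498) and failed on leaving out any 1 of 25 libraries. At 360 min it read 7.68, 7.90 and 7.70 in D310N, against 7.54, 7.56 and 7.63 in WT. All D310N libraries were above all WT libraries there, as they were at 120 min. The difference at 360 min was 0.18 ± 0.06 (limma, adjusted p = 0.042). It did not pass without WT 360 min replicate 1, WT 360 min replicate 2 or D310N 360 min replicate 2. The average over all times was 0.08 ± 0.03 higher in D310N (adjusted p = 0.011), with any single library left out as well.

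Socs4, a relative of Socs5, and Socs6, an adaptor that promotes breakdown of receptor tyrosine kinases, moved little. Socs4 lies at chr14:47276931-47296102 on the plus strand and Socs6 at chr18:88665224-88927481 on the minus strand. Socs4 averaged 7.81 ± 0.10 in D310N and 7.86 ± 0.16 in WT at 0 min, and by 60 min it had risen by 0.40 ± 0.09 in D310N and by 0.41 ± 0.09 in WT. At 240 min a rise of 0.24 ± 0.09 in D310N passed (adjusted p = 0.019), but not without D310N 0 min replicate 3 or D310N 240 min replicate 1. Socs6 moved the other way. It averaged 9.10 ± 0.05 in D310N and 9.13 ± 0.04 in WT at 0 min, and at 60 min it differed from that by -0.36 ± 0.05 in D310N and by -0.43 ± 0.05 in WT. At 120 min it was still lower, with differences of -0.22 ± 0.05 in D310N and -0.31 ± 0.05 in WT, and from 240 min on no difference from 0 min passed. Socs6 overlaps 3 processed pseudogenes in the annotation, so its value may include reads from them. Between genotypes no difference of either gene passed at any time or on average, and the largest was -0.16 ± 0.09 for Socs4 at 30 min. The 3 D310N libraries of Socs4 at 360 min, at 7.93, 8.0 and 7.97, lay just below the WT libraries at 8.01, 8.05 and 8.07.

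**Figure D2:**
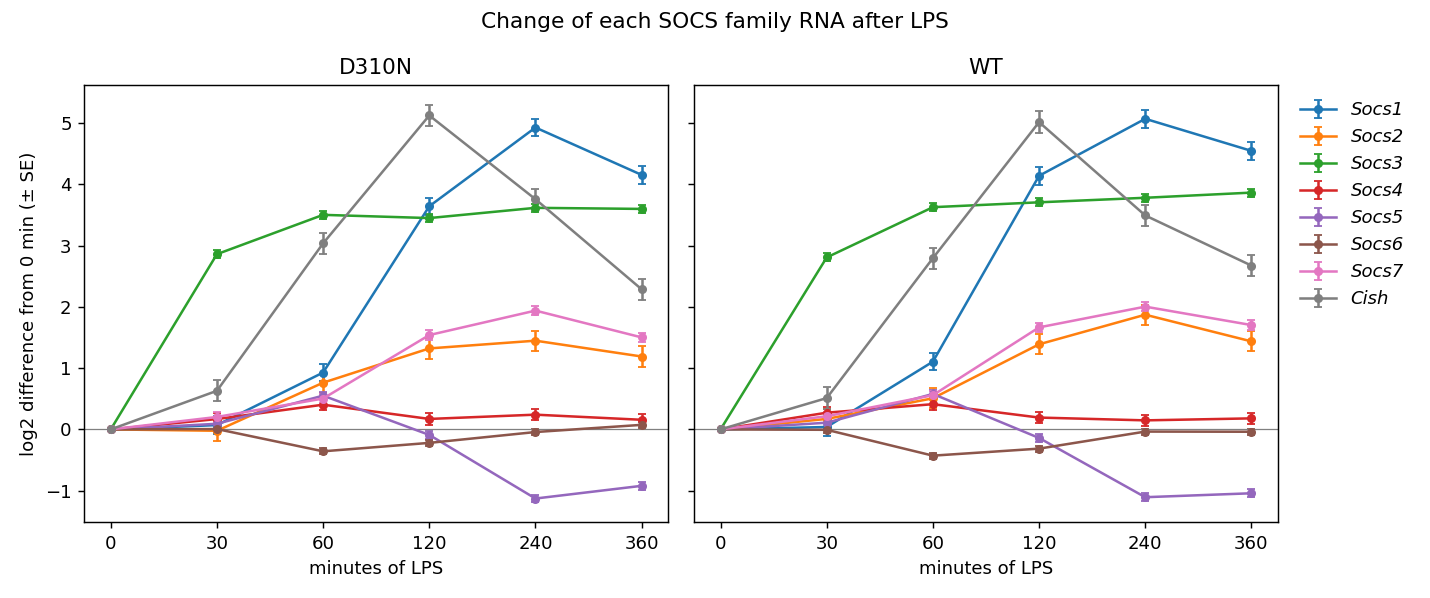
Log2 difference from 0 min (vertical axis) of each SOCS family gene against minutes of LPS (horizontal axis), in D310N (left) and WT (right), with bars of 1 SE from limma. Socs3 is near its plateau by 60 min, Cish peaks at 120 min at 5.12 in D310N and 5.02 in WT, Socs1 peaks at 240 min, and Socs5 drops below zero.

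Counted over the family, LPS moved nearly every member. At 30 min 2 of 8 members passed in D310N, beside 6.64% of all tested genes, and 1 in WT, beside 6.09%. The WT count was 3 without WT 360 min replicate 1 and 2 without WT 30 min replicate 2 or WT 360 min replicate 2, and the D310N count was 1 without any 1 of its 6 libraries. All 3 of the calls with all libraries were rises, beside 5.16% of genes up and 1.48% down in D310N and 4.79% up and 1.30% down in WT. By 60 min all 8 had passed in each genotype, beside 38.5% of genes in D310N and 37.2% in WT. Of them 7 rose and Socs6 fell, beside 21.3% up and 17.2% down in D310N and 20.1% up and 17.1% down in WT. After 120 min 5 members were up and Socs6 was down in D310N (64.0% of genes, 31.9% up and 32.1% down). In WT 5 were up, and Socs6 and Socs5 were down (66.6% of genes, 32.4% up and 34.2% down). After 240 min 6 members were up in D310N (79.1% of genes, 39.0% up and 40.2% down) and 5 in WT (80.0% of genes, 39.6% up and 40.4% down), with Socs5 down in each. After 360 min 5 were up and Socs5 was down in each, beside 80.0% of genes in D310N (39.0% up and 41.0% down) and 80.4% in WT (39.3% up and 41.0% down). At 30 min the counts rest on 1 or 2 genes and are not read against the background. At 60 min they stood above it, with or without Socs2, whose rise the filter favoured because it passed through LPS libraries alone, and from 120 min on they were nearer to it. Socs1, Socs3, Socs7 and Cish, and with that limit Socs2, rose in both genotypes at every time from 60 min on.

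For D310N against WT the picture was sparser. No member passed at 0, 30, 60 or 240 min, where 10.7%, 12.2%, 12.9% and 17.0% of all tested genes did. At an unadjusted p under 0.05 there were 0, 1, 1 and 0 members at those times. Only Socs1 passed at 120 min, 1 of 8 beside a background of 17.7%. Without WT 360 min replicate 1, Socs1 passed at 60 min (1 of 8 beside 17.9%) and Socs1, Socs3 and Socs7 at 120 min (3 of 8 beside 23.7%). At 120 min 2 passed without WT 360 min replicate 2 or D310N 0 min replicate 3, and the share of all genes in these fits is not given here. At 360 min 4 of 8 passed (Socs1, Socs7 and Cish lower, Socs5 higher) beside 16.3%, with 9.52% of genes lower and 6.80% higher, and without WT 360 min replicate 1 only Socs3 did, 1 of 8 beside 17.9%. The count at 360 min was 2, 0 and 1 without replicate 1, 2 and 3 of D310N at that time, again with no share of all genes given here. Averaged over times 3 of 8 passed (Socs1 and Socs7 lower, Socs5 higher) beside 48.1%, with 25.4% of genes lower and 22.7% higher. The genotypes' libraries did not overlap for 0, 1, 2, 4, 3 and 3 members from 0 to 360 min, beside 32.7%, 33.4%, 37.4%, 31.7%, 37.6% and 22.2% of all tested genes. As shares of 8, these lie near or below the background at most times.

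**Figure D3:**
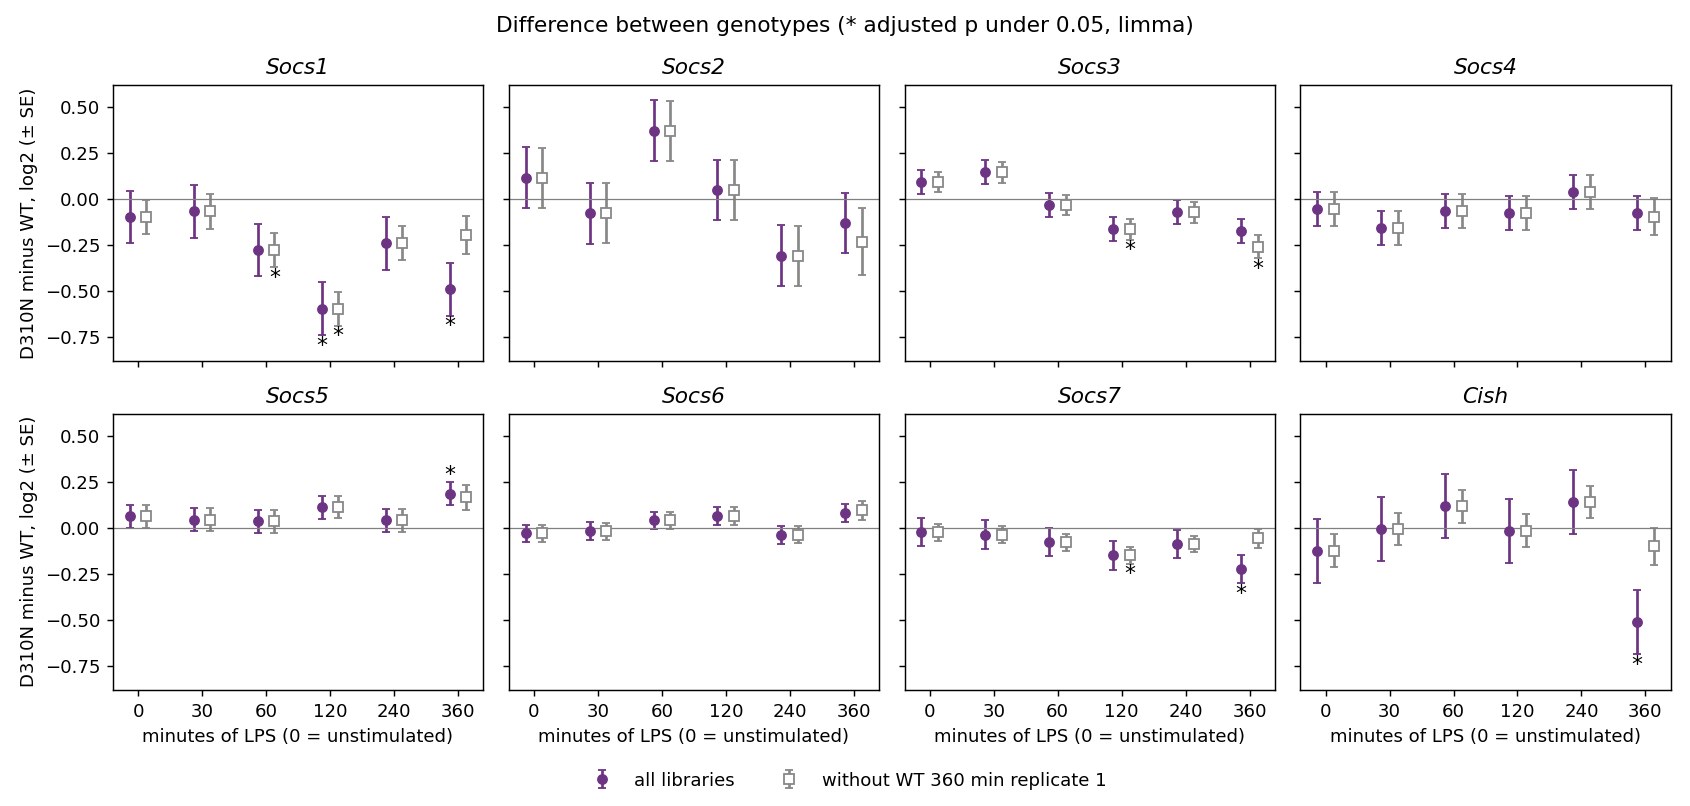
Difference between D310N and WT (vertical axis, log2, bars of 1 SE from limma) at each time of LPS (horizontal axis), with all libraries (purple) and without WT 360 min replicate 1 (grey squares), a star marking adjusted p under 0.05. Socs1 lies below zero at all 6 times, lowest at -0.59 at 120 min, and at 360 min the values of Socs1, Socs7 and Cish move toward zero without that library.

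Whether the response to LPS itself differed between the genotypes was tested as the change from 0 min in D310N minus that in WT. No member passed at any of the 5 times, where 0, 0.0686, 0.935, 1.95 and 2.01% of all tested genes did. Unadjusted p was under 0.05 for 0, 0, 2, 0 and 1 members. The joint test over the 5 times passed for no member and for 4.84% of all genes, and 1 member had an unadjusted p under 0.05. Socs3 came nearest (adjusted p = 0.091). Without WT 360 min replicate 1 its joint test passed, with adjusted p = 0.0051, beside 10.4% of all tested genes in that fit. Over all alternatives the value ranged from 0.0051 to 0.18. Without that library the Socs3 response at 360 min differed by -0.35 ± 0.08 and passed, beside 4.98% of all tested genes, against -0.27 and no call with all libraries. Without the same library the Socs1 response at 120 min differed by -0.50 ± 0.13 and passed, beside 2.22% of all tested genes. With all libraries it was also -0.50, with adjusted p = 0.41, and over the alternatives that p ranged from 0.035 to 0.80.

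The genes that feed and follow the SOCS brake were taken in 6 lists. Of 20 cytokines that signal through Janus kinases, 14 passed the filter, which admits genes that are high only after LPS, and these 14 were higher at 240 min than at 0 min in both genotypes, with a median of 2.65 in D310N and 2.84 in WT, against -0.02 over all tested genes in each. Of all tested genes 39.0% rose and 40.2% fell in D310N at that time, and 39.6% rose and 40.4% fell in WT, which is the background for each list at 240 min. Il6, the ligand of the receptor that Socs3 restrains, rose by 5.81 ± 0.14 in D310N and 6.16 ± 0.14 in WT. Ifnb1, the interferon whose receptor Socs1 restrains, rose by 3.44 ± 0.22 in D310N and 3.70 ± 0.22 in WT. Of 11 Janus kinases and STATs, 10 rose and Stat6 fell in both genotypes, with Jak2 up by 3.23 ± 0.05 in D310N and 3.34 ± 0.05 in WT. All 18 STAT-induced genes rose, with a median of 2.88 in D310N and 2.75 in WT. Cxcl9, an interferon-induced chemokine, led them at 6.61 ± 0.06 in D310N and 6.83 ± 0.06 in WT.

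Receptors and the other brakes were mixed. Of 27 receptor chains 22 were tested, and of these 12 rose and 7 fell in D310N, and 11 rose and 7 fell in WT. Il15ra, the receptor chain that presents Il15, rose by 4.29 ± 0.09 in D310N and 4.24 ± 0.09 in WT, and Il6ra, the chain that binds Il6, fell by 2.33 ± 0.18 in each genotype. Of 13 other brakes on the pathway 7 rose and 2 fell in D310N, and 7 rose and 3 fell in WT, led by Usp18, an inhibitor at the interferon receptor, at 3.98 ± 0.06 in D310N and 3.79 ± 0.06 in WT. Of 11 ubiquitin ligase partners of the SOCS box 9 were tested, of which 6 rose in D310N and 7 in WT, and none fell. The scaffold Cul2 was up by 1.23 ± 0.05 in D310N and 1.44 ± 0.05 in WT. Under quantile normalisation the split changed to 9 up and 11 down in D310N and 7 up and 12 down in WT for receptors, to 6 and 6 in D310N and 4 and 6 in WT for brakes, and to 4 and 2 in D310N and 4 and 3 in WT for ligase partners.

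Most STAT-induced genes that differed between genotypes were lower in D310N. On average over the times 10 of the 18 tested genes were lower in D310N and 1 was higher, beside 25.4% and 22.7% of all tested genes, with a median of -0.15, against -0.00 over all tested genes. The lower ones included Irf7, a factor of interferon production, at -0.60 ± 0.05 (limma, adjusted p = 3.1e-12), and Ifit3, an interferon-induced antiviral gene, at -0.55 ± 0.03 (adjusted p = 2.6e-15). At 0, 30, 60, 120, 240 and 360 min the numbers lower were 5, 6, 6, 12, 4 and 4 of 18, beside 7.09%, 7.78%, 7.96%, 9.72%, 10.0% and 9.52% of all tested genes. The largest number was at 120 min. Higher in D310N was 1 of the 18, at 30 min, beside 3.64%, 4.43%, 4.89%, 7.94%, 6.98% and 6.80% of all genes. At 120 min its median was -0.33, against 0.01 over all genes, and the difference of Cxcl9 was -0.95 ± 0.06. Usp18, of the other brakes, was at -0.37 ± 0.02 on average and already at -0.40 ± 0.06 at 0 min. Without WT 360 min replicate 1 the number lower was 6 at 240 min and 8 at 360 min. The list was picked with earlier results known, and its counts describe these libraries.

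Of the other lists, the cytokines were also more often lower in D310N. On average 8 of 14 cytokines were lower and 3 higher, beside 25.4% and 22.7% of all tested genes. Their median was -0.18, close to the -0.15 of the STAT-induced genes. Ifnb1 was at -0.46 ± 0.09 and Il23a, a subunit of Il23, at 0.46 ± 0.08. By time, the difference of Ifnb1 passed at 60 min, at -0.99 ± 0.22 (limma, adjusted p = 0.0016), and lay between -0.55 and -0.11 at the other 5 times, where it did not pass with all libraries. It did at 120 min without WT 360 min replicate 1 or 2, at 240 min without WT 360 min replicate 1 and at 360 min without WT 360 min replicate 2. Of 22 receptor chains 9 were higher and 4 lower in D310N, with Il27ra at 0.57 ± 0.06 and Il12rb2 at -0.62 ± 0.05. Without WT 360 min replicate 1 the number lower was 7, in a fit where 52.3% of all tested genes passed in either direction. Of 11 kinases and STATs 4 were lower and 1 higher, a share called near the 48.1% of all genes, the lower ones including Stat4 at -0.23 ± 0.04. The higher one was Jak1, at 0.05 ± 0.02. Of 13 other brakes 4 were lower and 2 higher, again near that share, the higher ones including the ubiquitin ligase Cbl at 0.31 ± 0.05. Of 9 ligase partners Ube2f alone passed, at 0.05 ± 0.02.

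**Figure D4:**
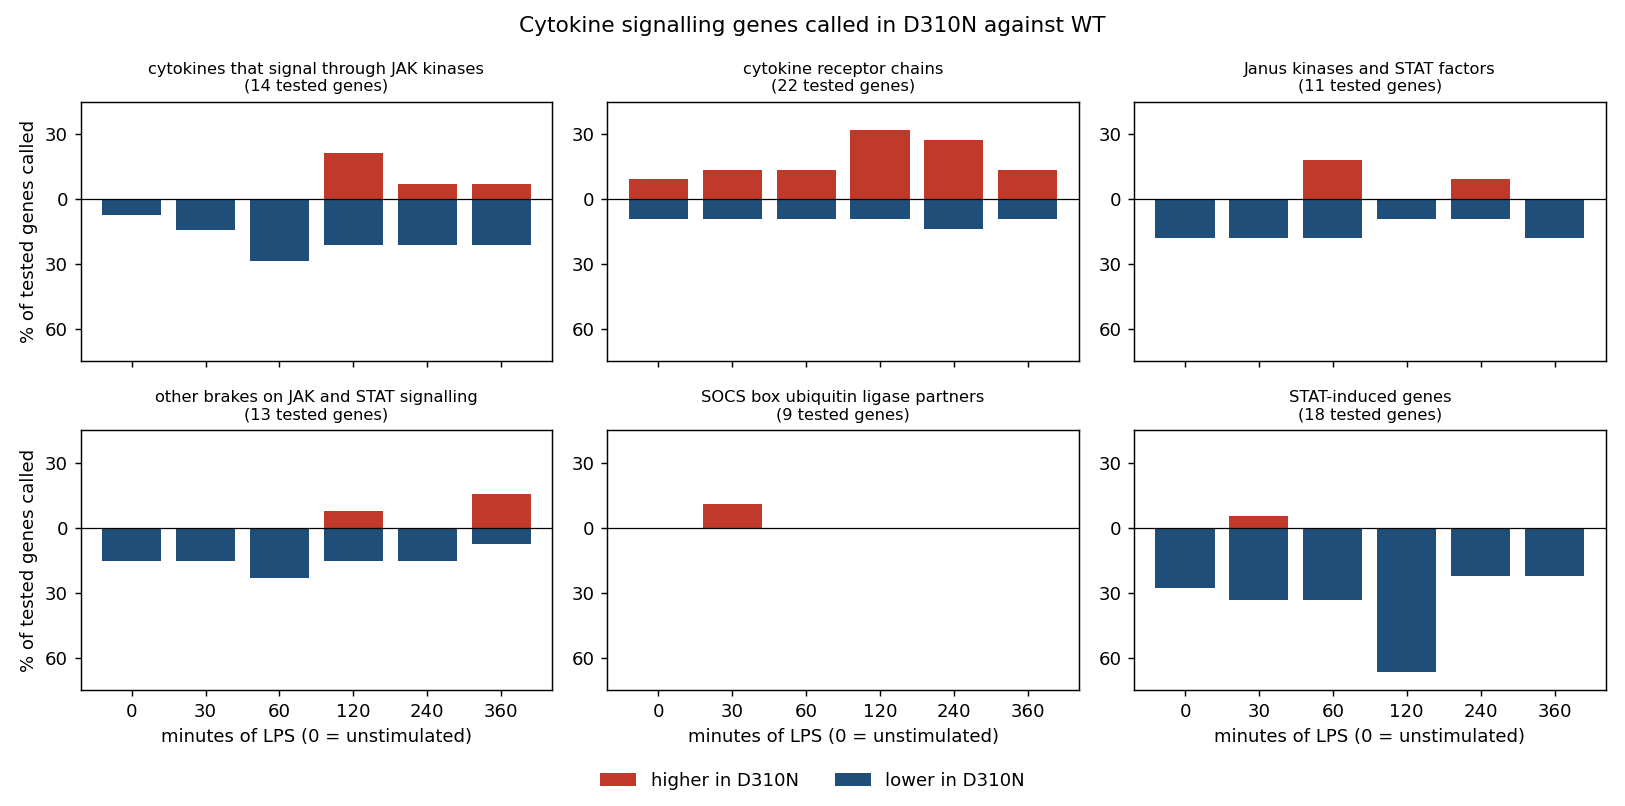
Percent of the tested genes of each list (vertical axis) that were higher (red, above zero) or lower (blue, below zero) in D310N than in WT at adjusted p under 0.05, by minutes of LPS (horizontal axis). Among the 18 STAT-induced genes, 12 are lower at 120 min, while at most 1 of the 9 SOCS box ligase partners passes at any time.

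Other genes followed the same course as a member. Likeness was measured as Pearson's r over the 12 group means, which share their time course, and is given as a description. For Socs1 the closest were Snn (r = 0.998), Pvrl2 (0.997) and the cytokine gene Il27 (0.996). Socs3 was closest to Gadd45b, a stress-response gene (0.993), and to the STAT-induced kinase gene Pim1 (0.986). Cish ran closest to Crtc2 (0.991), Cdc27 (0.991) and the adhesion receptor gene Cd44 (0.990). The nearest to Socs7 were Fam129a (0.997) and Filip1l (0.996), to Socs5 Ado (0.988) and Spred2 (0.988), and to Socs2 Sf3b1 (0.989) and Poglut1 (0.988). Socs4 and Socs6 spanned less than 1 log2 unit over the groups and were not matched.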

How the data were processed

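RNA was sequenced as single-end reads of 75 bases. Per the submitters' processing notes the tools were STAR 2.5.2a, RSEM 1.2.31 and DESeq2 1.10.1, with the mm10 build. The authors deposited 1 table of log2 values for all 36 libraries, and what log2 transformation they used is not given in the sources used here. Raw counts were not used, so depth is unknown and no counting interval can be given. Genes without signal sit at a floor of their own, so changes of low genes may be understated. The table's column names number the mutated residue 1 lower than the sample titles do. Of 16439 entries, 23 with names turned into dates were left out.

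Genes with a linear value of at least 10 (log2 of 3.32) in at least 3 libraries were tested, 11656 in all. One limma 3.58.1 model (R 4.3.3) was fitted to the log2 values of all 36 libraries with 12 group means and an intensity trend (24 residual degrees of freedom). Tests were two-sided, p-values were Benjamini-Hochberg adjusted over all tested genes within each comparison, and a gene passed at adjusted p under 0.05. Errors are SE of a difference or, where stated and for group means, SD with n = 3. The fit was tested on simulated data. Alternatives were a replicate block, quantile normalisation, trimmed mean scaling, other filters and pseudocounts, only the libraries compared, no trend, library weights and leaving out each library. The members and all gene lists were chosen with earlier results of these data known. From each list up to 2 called genes with the largest average difference between genotypes and up to 2 with the largest change at 240 min in WT could be named, and other list genes (Il6ra, Stat6, Jak1) were named after their values were seen. Replicate numbers were checked for pairing through the correlation of deviations from the group means. Every pair was over 0.1 only between 120 and 0 min in D310N (0.13 to 0.37), where the replicate block left the count of members at 6. Marker lists of macrophages and of 6 other cell types were summed on the linear scale.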

Additional observations from a re-analysis of the deposited data

How the results depend on the processing

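Of 11561 values of single members under an alternative, 11326 kept their side of the threshold (and, where called, their direction), 143 lost a call, 90 gained one and 2 that were called with or without the alternative reversed. Changes of sign among uncalled values, as for Socs2 at 0 and 30 min between genotypes, are not counted as reversals. Both reversals came from quantile normalisation, for the Socs3 step from 120 to 240 min, at -0.14 in D310N and -0.27 in WT, and the cause was not tested. For D310N against WT the number of members called was 1 with library weights at 0 min, 1 with only the libraries compared at 30 min, and 1 at 240 min in that same fit. At 60 min it was 1 with only the libraries compared, 2 with library weights and 0 to 1 with single libraries left out, and at 120 min 1 to 3. At 360 min (4 with all libraries) it was 1 under quantile normalisation, 1 with no filter, 0 with only the libraries compared, 2 with no trend, 1 with library weights, and 0 to 5 with single libraries left out. For LPS at 30 min in D310N (2) it was 1 with a pseudocount of 8, 4 with library weights and 1 to 3 with single libraries left out. For LPS at 30 min in WT (1) it was 2 with the replicate block, 2 with the block within genotype, 3 under quantile normalisation, 3 with only the libraries compared, 4 with library weights, and 1 to 3 with single libraries left out. The difference of the LPS response called 1 member with library weights at 120, 240 and 360 min, and 0 to 1 at 120 and 360 min with single libraries left out, as did the joint test (1 and 0 to 1). The other counts stayed within 1.5 times. The replicate block changed no other count of members by more than that. Shares of all tested genes under these alternatives are not given here, apart from the fit without WT 360 min replicate 1. A setting that calls more genes throughout would raise these counts too, so they are not read as results about the members. In D310N, LPS libraries at every time correlated positively with the 0 min library of the same number, at 0.04 to 0.42. In WT these correlations ran from -0.25 to 0.13, and between genotypes from -0.25 to 0.26. Each of the 3 LPS libraries correlated best with its own number at 120, 240 and 360 min in D310N, and in no other comparison. What a shared number stands for is not given in the sources used here, and the main model holds no replicate term. The joint test was not run with only the libraries compared, nor D310N against WT with the block within genotype. No depth is known, so low values such as those of Socs2 carry no counting error.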
